A study of Mus musculus with 6 samples.

Results

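The genes described here encode RGS proteins and the alpha, beta and gamma subunits of heterotrimeric G proteins. They were picked by gene symbol, by a rule set with earlier results of these data known. The lists of receptors, effectors and regulators below were chosen with the same knowledge. Shares set against all genes therefore describe chosen sets and do not test them. Of the 36291 gene rows 47 matched the rule, made up of 20 Rgs genes, 12 alpha, 5 beta and 10 gamma subunit genes. Their counts were compared between 3 knockout (KO) and 3 wild-type (WT) libraries. Each was made from poly-A RNA of FACS-sorted cells from E14.5 telencephalon, in mice of the Swiss strain. The series title places Sip1, the older name of the transcription factor Zeb2, in cortical interneuron migration. The design text gives the KO as Sip1|Nkx2-1 knockout without spelling out its alleles, and all 6 libraries, WT included, carry the source label of eGFP+ cells targeted by Nkx2-1-iCre. That driver acts in the medial ganglionic eminence and its neighbours, so the cells in both groups are those with a history of Cre activity there, and the labels do not give the other alleles of the WT animals or the number of embryos per library. Libraries of both genotypes carry the numbers K77, K79 and K80, with 1 KO and 1 WT library for each.

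G-protein-coupled receptors pass signals through an alpha subunit that binds GTP when the receptor is active and separates from the beta-gamma dimer, and both parts then act on enzymes and channels. RGS proteins speed the return of the alpha subunit to its GDP-bound form and so shorten the signal. Migrating cortical interneurons carry receptors of this kind for chemokines, opioids, GABA and monoamines, most of them coupled to the Gi/o class.

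Depth was 8323531 to 11069437 gene counts per library. Zeb2 itself stood at 343, 272 and 307 CPM in KO K77, K79 and K80, against 705, 513 and 768 CPM in the WT libraries in the same order (log2 fold change -1.11). CPM are counts scaled to a common library size. The RNA of both groups held Lhx6, 1 of the defining genes of the lineage, at 1006 to 1266 CPM in KO and 933 to 1166 CPM in WT libraries. The 5 oligodendrocyte precursor markers, 4 of them called lower, summed to 48.5 to 56.5 CPM in KO and 115 to 135 CPM in WT, and the 11 medial ganglionic eminence interneuron markers (3 called higher, 2 lower) to 6062 to 6991 CPM in KO and 5316 to 6133 CPM in WT. Their part in the values below was not tested. WT K79 stood apart in sex-linked genes, with 26109 Xist counts against 13 to 28 in KO and 16 to 22 in the other WT libraries. Across 13835 tested genes edgeR called 867 at an adjusted p under 0.05, which is 6.27%, and called 3.64% higher and 2.62% lower in KO. In bulk RNA such as this, fewer cells of a type and less RNA per cell cannot be told apart.

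Rgs8 and Rgs17 were called higher in KO, and the subunit genes Gng4, Gng3 and Gnaz were called higher as well once the K number was taken into account. Of the 36 members with enough counts to be tested, edgeR called 2 higher (Rgs8 and Rgs17) and 0 lower in KO, which is 5.56% higher against 3.64% of all tested genes. None was lower at an unadjusted p under 0.05, nor by DESeq2, which called 3 members and 6.84% of all genes, or limma voom, which called 2 members and 6.3% of all genes. With the K number as a block edgeR called 5 higher, adding Gng4, Gng3 and Gnaz, or 13.9% against 6.13% of all genes, and again 0 lower, against 4.45% of all genes. The median log2 fold change of the 36 was 0.08, and that of all tested genes -0.0058. An unadjusted p under 0.05 was reached by 9 members, each with the higher mean in KO, or 25% of them against 18.4% of all genes. Without KO K79 or KO K80 the unblocked count fell to 1, without KO K77 it was 4, and without WT K79 or WT K80 it was 3.

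**Figure D1:**
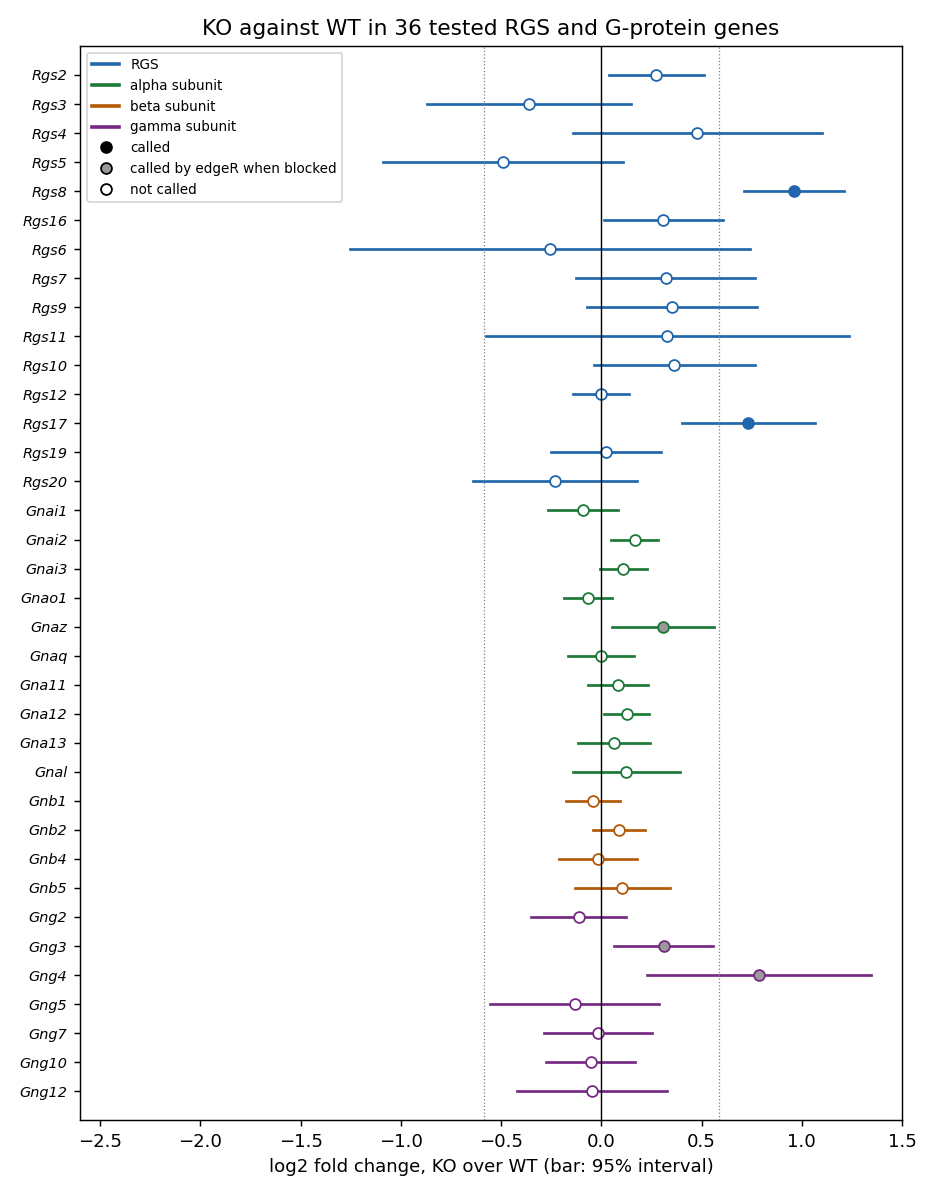
Log2 fold change, KO over WT, of the 36 tested genes (horizontal axis) with the 95% interval of the edgeR fit as a bar, ordered by family and coloured by class; dotted lines mark a 1.5-fold difference either way, and grey points were called by edgeR with the K number as a block and not without it. Rgs8 (0.96) and Rgs17 (0.73) are the filled points, and the intervals of the 10 alpha and 4 beta subunit genes all lie between the dotted lines.

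Rgs8 had the largest called change. It belongs to the R4 subfamily of small RGS proteins, acts on Gi/o and Gq alpha subunits and is known for speeding the opening and closing of G-protein-gated potassium channels. Its level was 291, 324 and 338 CPM in KO K77, K79 and K80, against 149, 197 and 144 CPM in WT K77, K79 and K80. The lowest KO library lay well above the highest WT library, WT K79. The mean was 318 ± 24.1 CPM in KO and 163 ± 28.9 CPM in WT (SD, n = 3 each), which gives 0.96 as log2 fold change with an SE of 0.112 (edgeR adjusted p = 0.000845). This is 1.94-fold, with a 95% interval of 1.63 to 2.31. Each same-numbered pair showed it, with log2 ratios of 0.96 (K77), 0.72 (K79) and 1.23 (K80). The call held in all 12 other fits, which gave log2 fold changes of 0.87 to 1.12, the highest without WT K79. The authors' deposited table gave 0.96 on the log2 scale. Exons of Rgs8 overlap those of the antisense gene Gm29529 in GENCODE M21, which has no row in the count table, and whether strand was used in counting is not stated in the labels, so reads of that gene could have been counted with Rgs8.

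Rgs17, an RZ subfamily member that acts on Gz and Gi alpha subunits and binds opioid receptors, also rose. KO K77, K79 and K80 had 90.5, 83.4 and 94.0 CPM, and WT K77, K79 and K80 had 39.3, 56.9 and 64.6 CPM. The groups did not overlap, and the WT libraries were the more spread. The means were 89.3 ± 5.42 CPM in KO and 53.6 ± 13.02 CPM in WT (SD, n = 3 each). The log2 fold change was 0.73 with an SE of 0.148 (edgeR adjusted p = 0.0165), or 1.66-fold with a 95% interval of 1.32 to 2.09. The call was lost without KO K79 (adjusted p = 0.0506) or KO K80 (0.0877), with the direction kept, and held without WT K79 (log2 fold change 0.77, adjusted p = 0.0248). In the same-numbered pairs the log2 ratio was 1.21 (K77), 0.55 (K79) and 0.54 (K80).

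**Figure D2:**
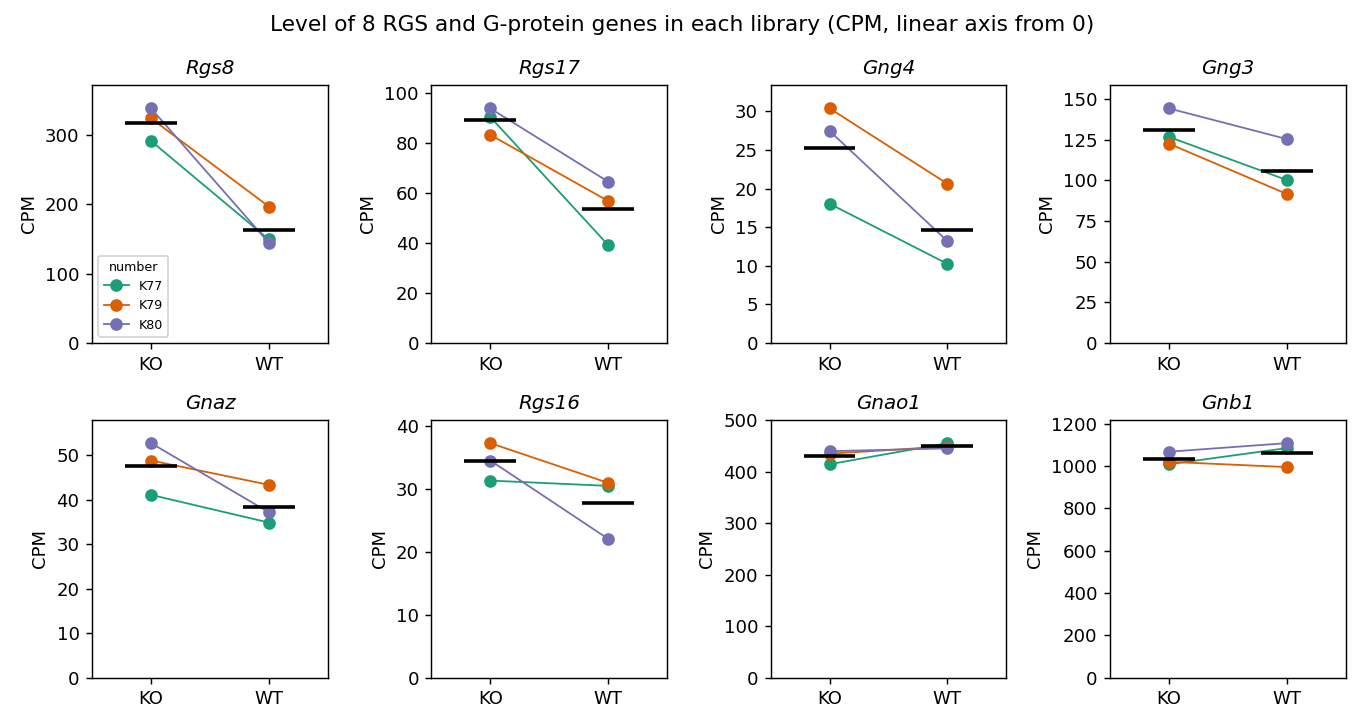
Level in CPM (vertical axes, linear from 0) of 8 genes in each library, KO left and WT right; points and lines are coloured by K number and join libraries with the same number, and black bars are group means. Rgs8, Rgs17 and, narrowly, Rgs16 show each KO library above each WT library, and Gng4, Gng3 and Gnaz are higher in KO within each number. Gnao1 and Gnb1 stay within a narrow range, Gnao1 with each KO library below each WT library.

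Zeb2 is known to bind DNA at the letters CACCT, often in spaced pairs, so windows around annotated starts of Rgs8, Rgs17 and Gng4 are shown. Rgs8 has 3 windows and Gng4 has 2, of which the first and last of Rgs8 and the second of Gng4, the one with more matches, are printed. RefSeq held windows for 35 of the 47 members. The windows run from 250 bases before to 50 bases after a start, in RefSeq GRCm38.p6, a later build than the mm9 of the submitters' processing notes. Capitals mark CACCT or, where it lies on the other strand, AGGTG.
Rgs8 first start, chr1:153652787-153653086, plus strand: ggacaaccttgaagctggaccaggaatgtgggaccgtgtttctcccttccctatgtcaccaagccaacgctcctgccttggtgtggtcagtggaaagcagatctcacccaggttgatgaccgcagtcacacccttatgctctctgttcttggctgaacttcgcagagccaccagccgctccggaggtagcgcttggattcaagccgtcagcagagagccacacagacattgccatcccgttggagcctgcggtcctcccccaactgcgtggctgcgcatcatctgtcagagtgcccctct
Rgs8 last start, chr1:153665423-153665722, plus strand: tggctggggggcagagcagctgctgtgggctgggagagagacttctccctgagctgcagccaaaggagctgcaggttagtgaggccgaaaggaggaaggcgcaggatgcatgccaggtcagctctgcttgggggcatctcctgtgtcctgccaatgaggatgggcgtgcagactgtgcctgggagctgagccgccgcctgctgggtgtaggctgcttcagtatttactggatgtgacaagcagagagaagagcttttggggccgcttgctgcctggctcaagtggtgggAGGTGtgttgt
Rgs17, chr10:5922351-5922650, minus strand: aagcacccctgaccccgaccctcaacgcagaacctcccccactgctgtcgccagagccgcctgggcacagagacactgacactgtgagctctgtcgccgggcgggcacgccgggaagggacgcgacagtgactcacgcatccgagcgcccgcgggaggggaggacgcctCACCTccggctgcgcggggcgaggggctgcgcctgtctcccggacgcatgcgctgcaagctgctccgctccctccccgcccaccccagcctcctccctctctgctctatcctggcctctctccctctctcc
Gng4 second start, chr13:13784057-13784356, plus strand: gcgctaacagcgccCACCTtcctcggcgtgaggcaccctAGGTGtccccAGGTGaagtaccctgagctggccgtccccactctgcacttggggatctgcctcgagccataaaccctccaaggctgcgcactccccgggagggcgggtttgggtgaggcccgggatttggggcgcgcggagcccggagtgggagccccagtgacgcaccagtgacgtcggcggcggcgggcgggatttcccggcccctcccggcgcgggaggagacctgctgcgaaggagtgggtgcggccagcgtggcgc
The first and middle Rgs8 windows held 0 matches and the last held 1, which lies 40 bases after the start. The Rgs17 window held 1 match, 81 bases before the start. Gng3, which like Gng4 was called with the K number as a block and not without it, is not printed. Its window held 0 matches. The first Gng4 window held 2 and the second held 3, of which the last is part of CAGGTG, the longer form CACCTG read on the other strand. These windows overlap, and both matches of the first are the same sites as the first 2 of the second. A match was common everywhere: 51.9% of all 32851 windows of this length held CACCT on either strand, and 20.2% held CACCTG. By gene, 16 of the 30 tested members with a window had CACCT in at least 1 of them, or 53.3%, against 54.6% of tested genes. The longer CACCTG was found in 3 of the 30, or 10.0%, against 20.9% of tested genes. The Rgs17 window was 71.0% G or C with 27 CpG dinucleotides, and the first Rgs8 window was 58.3% G or C with 12.

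The remaining R4 genes gave no call. Rgs16, which lies next to Rgs8 in the GENCODE M21 gene order (GRCm38) and acts on Gi/o and Gq, had 31.3, 37.2 and 34.4 CPM in KO and 30.4, 30.9 and 22.02 CPM in WT K77, K79 and K80. The groups did not overlap but came within 1 CPM of each other, and the log2 fold change was 0.31 (SE 0.133, edgeR adjusted p = 0.248). Rgs2, which favours Gq, averaged 47.8 ± 6.84 CPM in KO and 39.7 ± 1.87 CPM in WT (SD, n = 3 each). Its log2 fold change was 0.27 (edgeR adjusted p = 0.192), and without KO K77, its lowest KO library, 0.38 (adjusted p = 0.0374). Rgs4 spread widely, with 10.3, 24.7 and 18.9 CPM in KO against 9.60, 15.5 and 13.9 CPM in WT libraries (log2 fold change 0.48, edgeR adjusted p = 0.42). In both genotypes the K77 library was the lowest for Rgs4.

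Rgs5, a gene known for its use in pericytes, had 9.02, 6.81 and 6.35 CPM in KO and 14.5, 9.98 and 6.65 CPM in WT libraries, with overlap (log2 fold change -0.49, edgeR adjusted p = 0.382). The 6 pericyte markers summed to 45.0 to 62.6 CPM in KO and 36.3 to 65.9 CPM in WT, with 0 of the 4 tested called, and their part in the Rgs5 values was not tested. Rgs3 gave a log2 fold change of -0.36 at a mean of 7.58 CPM in KO and 9.66 CPM in WT (edgeR adjusted p = 0.469).

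The R7 genes, whose proteins are stable only when paired with the beta subunit encoded by Gnb5, gave no call among 4 tested. Rgs7 had 12.6, 15.0 and 15.0 CPM in KO against 7.85, 14.5 and 11.8 CPM in WT K77, K79 and K80, so that its log2 fold change was 0.32 (edgeR adjusted p = 0.462). Rgs9, a gene of striatal neurons, was at 9.02, 12.5 and 14.1 CPM in KO and 7.74, 10.2 and 10.2 CPM in WT (log2 fold change 0.35, edgeR adjusted p = 0.375). KO exceeded WT in each same-numbered pair for both genes, but libraries overlapped across numbers. The 11 striatal markers summed to 591 to 683 CPM in KO and 608 to 701 CPM in WT libraries, with 0 called by edgeR. Rgs6 and Rgs11 stood near 1 CPM, with intervals wide enough to hold a 1.5-fold difference in either direction for Rgs6. Gnb5 itself averaged 33.2 ± 1.25 CPM in KO and 30.8 ± 4.20 CPM in WT (SD, n = 3 each; log2 fold change 0.11, edgeR adjusted p = 0.678).

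In the R12 subfamily, Rgs12, a large protein with a GoLoco motif that holds Gi alpha subunits in the GDP-bound form, was nearly equal in the groups. It had 224, 217 and 207 CPM in KO and 232, 208 and 210 CPM in WT libraries, with a 95% interval of the log2 fold change from -0.14 to 0.14. Rgs10, which is abundant in microglia, averaged 11.1 ± 1.85 CPM in KO and 8.61 ± 1.51 CPM in WT (SD, n = 3 each; log2 fold change 0.36, edgeR adjusted p = 0.328). The 10 microglia and blood cell markers summed to 3.99 to 5.89 CPM in KO and 4.32 to 7.42 CPM in WT, with Ptprc at 0 in 3 of the 6 libraries. Besides Rgs17, the RZ genes Rgs19 and Rgs20 gave log2 fold changes of 0.024 and -0.23 (edgeR adjusted p = 0.948 and 0.583). Exons of Rgs20 overlap those of Atp6v1h on the opposite strand, a gene with its own row. If strand was not used in counting, reads in the shared exons could have been left out as ambiguous, so the Rgs20 value is uncertain.

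The alpha subunits of the Gi/o class, which receptors for chemokines, opioids and somatostatin use, differed by small amounts. Gnai2 had 303, 312 and 308 CPM in KO and 282, 272 and 270 CPM in WT libraries. Those groups did not overlap, yet the difference was only 1.12-fold (95% interval 1.03 to 1.22) and was not called (edgeR adjusted p = 0.113). Gnai3 likewise had each KO library above each WT library, at 238 to 251 CPM against 227 to 231 CPM (log2 fold change 0.11, edgeR adjusted p = 0.313). Gnao1, which encodes the Go alpha subunit abundant in neurons, was the member with each KO library below each WT library. Its levels were 415, 436 and 440 CPM in KO and 456, 449 and 446 CPM in WT, or -0.066 as log2 fold change (95% interval -0.19 to 0.05).

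Gnaz, the alpha subunit gene that gives the pertussis toxin-insensitive Gz and the preferred partner of RZ proteins, had 41.1, 48.8 and 52.8 CPM in KO and 34.9, 43.4 and 37.2 CPM in WT K77, K79 and K80. KO K77 fell below WT K79, so the groups overlapped, while KO was higher in each same-numbered pair. The log2 fold change was 0.31 (SE 0.113, edgeR adjusted p = 0.166, and 0.0491 with the K number as a block). Gnai1, at 53.4 ± 3.16 CPM in KO and 57.0 ± 3.06 CPM in WT (SD, n = 3 each), gave no call (edgeR adjusted p = 0.605).

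Alpha subunits outside the Gi/o class gave no call either. Gnaq, which drives phospholipase C beta, had 347, 396 and 400 CPM in KO and 359, 382 and 406 CPM in WT libraries, and its 95% interval of the log2 fold change ran from -0.17 to 0.16. Gna11, its close relative, gave 0.08 (edgeR adjusted p = 0.599). Gna12, which acts on RhoGEFs, had 188, 195 and 192 CPM in KO and 178, 175 and 173 CPM in WT. These did not overlap, at 1.09-fold (95% interval 1.01 to 1.18, edgeR adjusted p = 0.206). Gna13, the other member of that class, gave a log2 fold change of 0.06, and Gnal, whose product stimulates adenylyl cyclase in striatal and olfactory neurons, gave 0.12 (edgeR adjusted p = 0.754 and 0.657).

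Members whose KO and WT libraries did not overlap numbered 7 of 36, or 19.4%, against 23.2% of all tested genes. They were Rgs8, Rgs17, Rgs16, Gnai2, Gnai3 and Gna12 above WT, or 16.7% against 11.8%, and Gnao1 below it, or 2.78% against 11.4%. KO was above WT in all 3 same-numbered pairs for 16 members, or 44.4% against 22.3% of tested genes, and below it in all 3 for 4 members, or 11.1% against 22.1%.

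The beta subunit genes gave no call among 4 tested. Gnb1, the most counted of them, had 1009, 1021 and 1068 CPM in KO and 1085, 996 and 1109 CPM in WT libraries (log2 fold change -0.04, SE 0.0599, edgeR adjusted p = 0.787). Gnb2 averaged 419 ± 11.9 CPM in KO and 394 ± 17.9 CPM in WT (SD, n = 3 each), and Gnb4 averaged 52.7 ± 1.06 CPM in KO and 53.2 ± 5.74 CPM in WT (SD, n = 3 each). Their edgeR adjusted p were 0.492 and 0.95. Gnb3, a beta subunit of cone photoreceptors, was at 0 to 2 counts in every library.

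Among the gamma subunits, which anchor the dimer to the membrane through a lipid, Gng4 and Gng3 were higher in KO within each number. Gng4 had 18.04, 30.4 and 27.5 CPM in KO and 10.2, 20.6 and 13.2 CPM in WT K77, K79 and K80. The K77 library was the lowest and the K79 library the highest in both genotypes, and KO K77 lay below WT K79. Its log2 fold change was 0.78 (SE 0.251, 95% interval 0.23 to 1.34), with an edgeR adjusted p of 0.111, and 0.00253 with the K number as a block. DESeq2 called it (adjusted p = 0.0131), as did edgeR without WT K79 (1.11, adjusted p = 0.0162) or without KO K77 (0.97, adjusted p = 0.0462).

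Gng3, a gamma subunit of neurons, had 127, 122.6 and 144 CPM in KO and 100, 91.7 and 125 CPM in WT K77, K79 and K80. WT K80 exceeded KO K79, so the groups overlapped. Its log2 fold change was 0.31 (SE 0.111) with an edgeR adjusted p of 0.154, 0.00876 with the K number as a block, and 0.0172 without WT K80. Exons of Gng3 overlap those of Bscl2 on the opposite strand, so its counts are uncertain for the reason given for Rgs20. The authors' deposited table called 4 of the 46 members it gives an adjusted p, or 8.7% against 5.54% of its genes, and these were Rgs8, Rgs17, Gng4 (log2 fold change 0.78) and Gng3 (0.31).

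The other gamma subunit genes showed no call. Gng2 had 1040, 1023 and 1108 CPM in KO and 1129, 955 and 1347 CPM in WT libraries, the WT group spanning the whole KO range (log2 fold change -0.11, edgeR adjusted p = 0.647). Reads that align equally well to the pseudogene Gng2-ps1 could have been left out as not unique, or placed in its row, so this value is uncertain. Gng10, Gng7, Gng12 and Gng5 averaged 84.2, 24.1, 15.0 and 6.60 CPM in KO and 87.3, 24.4, 15.4 and 7.22 CPM in WT, with log2 fold changes from -0.13 to -0.017. Gng7 is known from striatal neurons, where its product joins the dimer that serves Gnal.

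How tightly these differences were bounded depended on the class. Among members not called, the 95% interval lay within 1.5-fold either way for all 10 alpha, all 4 beta and 6 of 7 gamma subunit genes, but for 3 of 13 RGS genes (Rgs2, Rgs12 and Rgs19). The other RGS genes not called, such as Rgs4, Rgs5 and Rgs11, could differ by more than 1.5-fold by these intervals. Gng4 was the gamma subunit gene outside those limits. These intervals cover each gene on its own and are not adjusted for the number of genes.

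The remaining 11 members had too few counts to be tested, with at most 32 over all 6 libraries. They were Rgs1, Rgs13, Rgs14, Rgs18, Rgs22, Gna14, Gna15, Gnb3, Gng8, Gng11 and Gng13. Several are known from cells other than forebrain neurons, such as Rgs1, Rgs13, Rgs18 and Gna15 from blood cells and Gng13 and Gng8 from sensory epithelia. Rgs18 was at 0 counts in every library. Rgs13 had 1 count in each KO library and 0 in each WT library, which is too few to read as a difference.

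Per exon length, Rgs8 and Rgs12 were the most abundant RGS transcripts, and their order by mean differed between the genotypes. Levels between genes were compared as CPM per kilobase of annotated exon. Rgs8 stood at 35.5 ± 2.69 CPM per kb in KO and 18.3 ± 3.23 in WT, and Rgs12 at 32.8 ± 1.30 in KO and 32.9 ± 2.07 in WT (SD, n = 3 each). Rgs8 made up 24.4% of the summed RGS level in KO and 15.8% in WT libraries. The share of Rgs12 was 22.6% in KO and 28.8% in WT, with its own level nearly equal, since shares add up to a fixed total. The sum over the 20 RGS genes was 135 to 154 CPM per kb in KO and 108 to 123.3 CPM per kb in WT libraries.

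Within the subunit classes the same genes led in both genotypes, and the differences in share were not tested. Gnai2 led the alpha subunits with 28.3% of their summed level per length in KO and 26.7% in WT, ahead of Gnai3 with 15.9% in KO and 15.6% in WT. The share of Gnao1 was 10.34 to 10.52% in KO libraries and 11.45 to 11.67% in WT libraries, with no overlap. Among the beta subunits Gnb1 took 63.1% in KO and 65.1% in WT, and Gnb2 took 32.6% in KO and 30.7% in WT. Gng2 took 58.4% of the gamma subunit level in KO and 62.5% in WT, and Gng3 took 19.3% in KO and 15.5% in WT. Neither gamma share overlapped between the groups, with Gng2 at 57.99 to 59.05% in KO and 60.79 to 63.86% in WT libraries, and Gng3 at 18.88 to 20.24% in KO and 14.9 to 15.88% in WT libraries. Such separation was not particular to these genes. The shares of Gnai1, Gnai2, Gnai3, Gna12, Rgs3, Rgs8, Rgs12, Rgs19 and Rgs20 did not overlap either. Shares within a class depend on each other, and the CPM of Gng2 overlapped between the groups. Summed levels overlapped between genotypes for the beta (512 to 535 CPM per kb in KO, 502 to 530 in WT) and gamma subunits (395 to 434 in KO, 358 to 481 in WT). The alpha subunits summed to 455 to 486 CPM per kb in KO and 444 to 450 in WT.

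**Figure D3:**
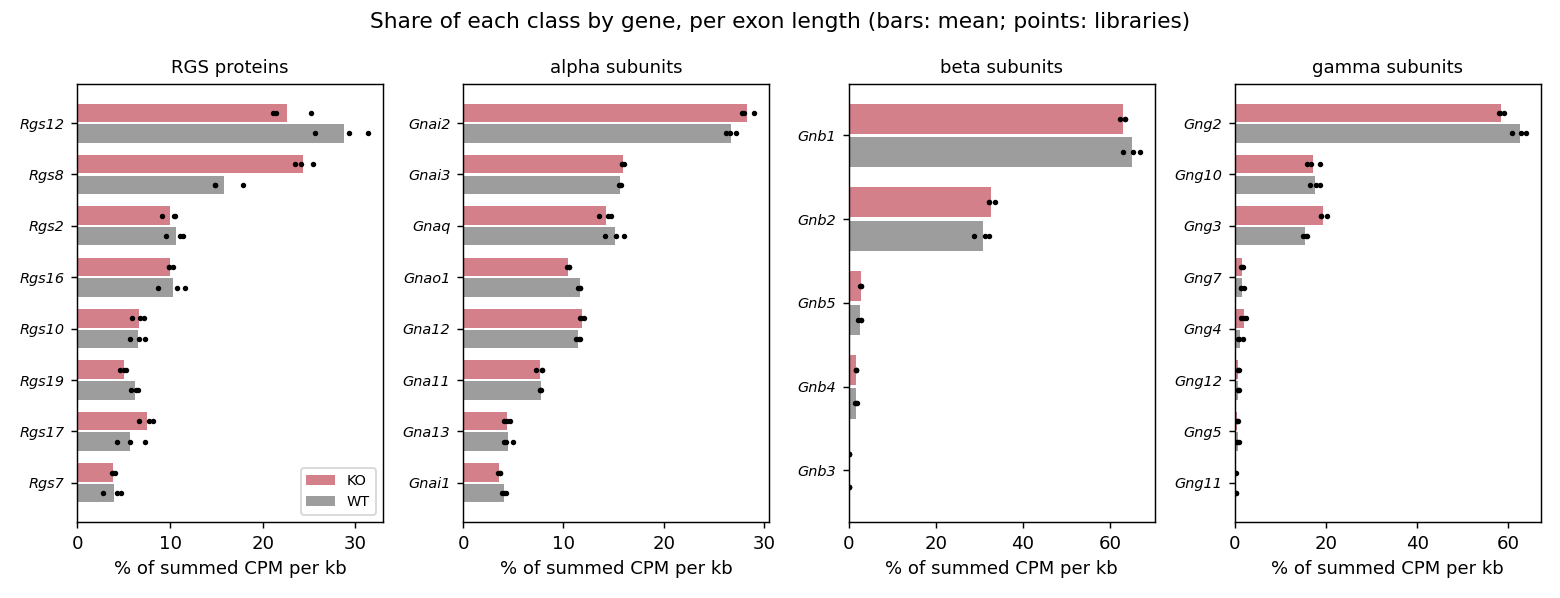
Share of each gene in the summed level of its class, in percent of CPM per kb of exon (horizontal axes from 0), for the 8 highest genes of each class or all 5 beta subunits; red bars are KO means, grey bars WT means and points the libraries. The Rgs8 share is 24.4% in KO and 15.8% in WT, and the Gng3 share is 19.3% in KO and 15.5% in WT.

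Receptors that feed into these G proteins changed in both directions. Of 30 Gi/o-coupled receptor genes tested, of 42 listed, 4 rose, 4 fell and 22 were not called by edgeR (median log2 fold change 0.14), so 26.7% were called against 6.27% of all genes. With the block 7 rose and 5 fell, against 10.6% of all genes called in either direction. The block added Oprl1 (0.30, blocked adjusted p = 0.00572), Htr5a (0.84, 0.0267) and Grm7 (0.55, 0.0453) higher and Sstr1 (-0.34, 0.0451) lower, each with its unblocked log2 fold change and its blocked adjusted p. Htr1a, a serotonin receptor, rose to 34.1 ± 4.52 CPM in KO, against 7.39 ± 1.70 CPM in WT (SD, n = 3 each; edgeR adjusted p = 8.69e-05). Npy1r, a neuropeptide Y receptor, rose by 1.93 on the log2 scale (edgeR adjusted p = 0.00248), with 2.65, 2.86 and 3.26 CPM in KO against 0.763, 0.864 and 0.665 CPM in WT libraries. The chemokine receptor genes Cxcr4 (log2 fold change -3.02, edgeR adjusted p = 0.000184) and Cxcr7 (-1.80, adjusted p = 0.000213) fell, and the product of Cxcr7 is known to signal mainly through arrestins and not G proteins. Grm8 (1.17), Hrh3 (0.68), Grm4 (-0.78) and Npy2r (-1.02) were also called. The calls of those 4 were lost when KO K80 was left out (adjusted p up to 0.146 over the libraries left out), and all but Grm8 without KO K79 as well. Without WT K77, Grm4 and Npy2r lost theirs too, as did Npy2r and Hrh3 without WT K80 and Hrh3 without WT K79.

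Receptors of other classes moved both ways. Of 19 Gq-coupled receptor genes tested, of 25 listed, 3 rose, 2 fell and 14 were not called (median log2 fold change 0.35), so 5 of 19 were called against 6.27% of all genes. DESeq2 called 5 higher, and with the block 6 rose and 2 fell, against 10.6% of all genes called in either direction. The block added Htr2c (unblocked log2 fold change 1.07, blocked adjusted p = 0.044), Tacr1 (0.50, 0.00585) and P2ry1 (1.27, 0.0146). Grm5, a metabotropic glutamate receptor, fell to 33.0 ± 5.04 CPM in KO, against 85.1 ± 14.5 CPM in WT (SD, n = 3 each; log2 fold change -1.37, edgeR adjusted p = 0.000379). The calls of Adra1a (1.56), Hcrtr2 (0.95) and Chrm1 (-1.55) were each lost without WT K77 and at least 1 KO library (adjusted p up to 0.169), Chrm1 without WT K80 too and by voom (adjusted p = 0.0591). Of 10 Gs-coupled receptor genes tested, of 20 listed (median -0.073), 1 rose (Htr7, 0.72) and 1 fell (Adcyap1r1, -0.43). The block gave the same counts. Of all genes 6.27% were called in either direction, and 10.6% with the block. Both Gs-coupled receptor calls were lost without KO K80 or WT K77, that of Adcyap1r1 also without KO K77 or WT K79 (adjusted p up to 0.123).

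Of the downstream effectors, 22 of 28 listed were tested. By edgeR 2 rose, against 3.64% of all genes, and 20 were not called (median log2 fold change 0.069). With the block 4 rose, against 6.13% of all genes, DESeq2 called 4 higher and voom 2, and 0 fell by any of these. Adcy5, an adenylyl cyclase that Gi inhibits, had 75.6, 76.0 and 83.3 CPM in KO against 50.8, 56.5 and 53.3 CPM in WT libraries, with no overlap (log2 fold change 0.55, SE 0.0746, edgeR adjusted p = 0.00188). Kcnj6, which encodes a subunit of the potassium channels that beta-gamma dimers open, had 3.97, 4.64 and 5.71 CPM in KO against 0.872, 1.73 and 1.71 CPM in WT libraries, or 1.72 as log2 fold change (edgeR adjusted p = 0.00545). Both calls held with each library left out. The block added Adcy2 (0.50, blocked adjusted p = 0.00265) and Plcb4 (0.43, blocked adjusted p = 0.00389). At an unadjusted p under 0.05, 2 effectors were lower, Adcy1 (-0.23) and Arhgef12 (-0.18), and neither was called.

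Other regulators of G-protein signalling gave 1 call in 24 tested, of 37 listed (median log2 fold change -0.030), against 6.27% of all genes, and DESeq2 called 3 higher. Gprasp2, which sorts internalised receptors, had 204, 206 and 204 CPM in KO against 150, 157 and 143 CPM in WT libraries (log2 fold change 0.45, SE 0.0534, edgeR adjusted p = 0.000951). With the block its relative Gprasp1 (0.24, blocked adjusted p = 0.0128) and Gpr158, a receptor that binds R7 proteins (0.55, blocked adjusted p = 0.0417), were also called higher. Arrb1 (-0.20, blocked adjusted p = 0.0406) was called lower. The blocked counts were thus 3 higher and 1 lower of 24, against 6.13% and 4.45% of all genes. Without WT K79 the unblocked fit called 2 regulators higher and 2 lower. Gnas, the stimulatory alpha subunit gene that the choice by symbol leaves out, had 22.2, 22.9 and 19.5 CPM in KO and 22.03, 20.2 and 13.3 CPM in WT libraries (edgeR adjusted p = 0.569).

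**Figure D4:**
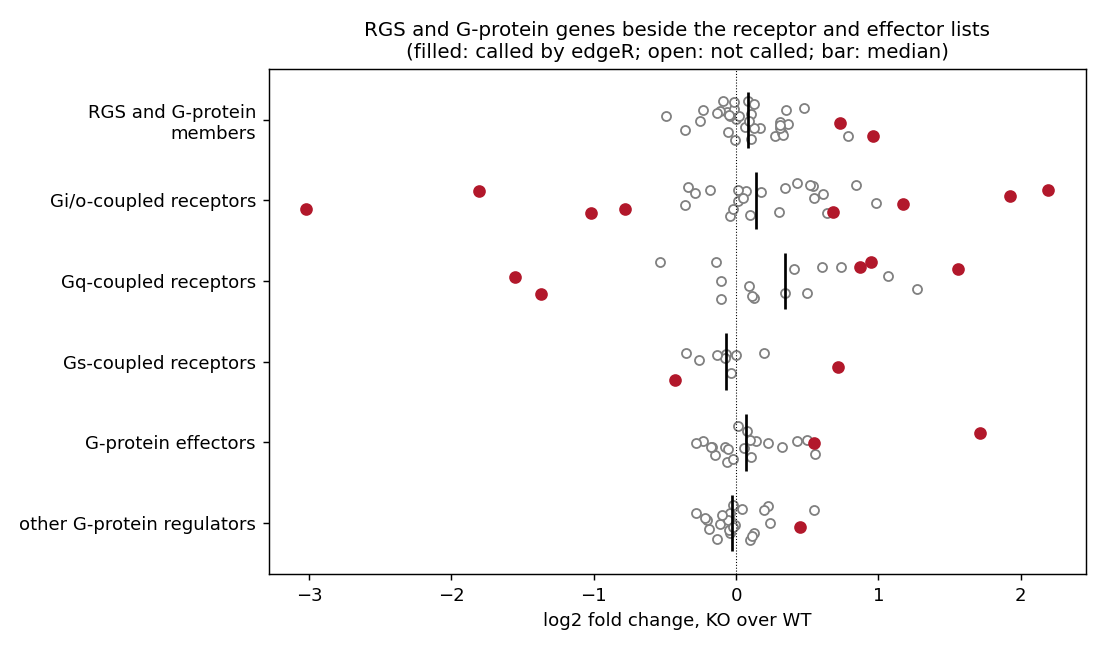
Log2 fold change, KO over WT (horizontal axis), of each tested gene in the 36 members and in 5 lists of pathway genes; filled points were called by edgeR at an adjusted p under 0.05, open points were not, and bars are medians. The members lie between -0.49 and 0.96, while the Gi/o-coupled receptors reach from -3.02 to 2.19.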

How the data were processed

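Per the labels' protocols, poly-A RNA from 100 ng of total RNA was made into libraries with 15 PCR cycles and sequenced for 36 cycles. Named in the submitters' processing notes, without their roles, are the build mm9 and the tools HTSeq 0.5.3p3, TopHat 1.2.0 and DESeq 1.2.2. The deposited counts are whole reads per gene, not normalized, and the authors' series table held the same values in all 36291 rows. The authors' deposited table holds, per the file headers, p-values and fold changes, both as a linear ratio and on the log2 scale. It names its groups A and B, and KO was taken as the numerator because all 777 calls shared with edgeR had the same sign. Rows that name no gene (19.75 to 21.77% unassigned and 1.94 to 1.99% ambiguous) were left out.

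Counts were tested in R 4.3.3 with edgeR 4.0.16 (TMM, filterByExpr with a minimum count of 10, quasi-likelihood test, Benjamini-Hochberg adjustment over 13835 genes at 0.05) and, as alternatives, DESeq2 1.42.0 and limma 3.58.1 voom. SE is the log2 fold change over the square root of F. Libraries of a genotype differed beyond sampling noise, and nothing in the labels says that they came from separate embryos. The p-values reflect only how these libraries vary, which may be technical apart from a difference in sex. WT K79 alone had the pattern of female tissue, with Xist at 26109 counts and Ddx3y at 3, against Ddx3y at 532 to 864 elsewhere. In the K79 pair sex therefore differs along with genotype. Same-numbered libraries deviated together from their group means (correlation 0.256, 0.197 and 0.175), so they were also read as pairs. The number was used as a block in an alternative edgeR fit. The main edgeR fit had genotype only and ignored this pairing, and its values are those given unless another fit is named. Exon lengths are from GENCODE M21 (GRCm38), and exons of 13 members overlap an antisense gene there. The members and lists were chosen with earlier results of these data known. Named are all members called by any fit or the authors' table or with an unadjusted p under 0.05, the most counted of each subfamily, and called list genes, of which one is not reported here, and members named beyond these were chosen after their values were seen. The procedure was tested on simulated data.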

Additional observations from a re-analysis of the deposited data

How the results depend on the processing

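The call of Rgs8 was the same in all 12 other fits, and 0 members were called lower in any of them. With the K number as a replicate block edgeR called 1463 genes and 5 members higher, Gng4, Gng3 and Gnaz joining Rgs8 and Rgs17, and it changed no other call among the members. With no filter on low counts 4 members were higher (Gng4 and Gng3 added). At an adjusted p under 0.01 there were 427 genes and 1 member, Rgs8. Leaving out each library in turn gave 445 to 1044 genes (445 without KO K80, 498 without KO K79 and 528 without WT K77) and 1 to 4 members higher. Signs were followed only for members called by a fit or the authors' table, with an unadjusted p under 0.05, or most counted in their subfamily. Of these, 3 genes near 0 and not called changed sign without some libraries. Their log2 fold changes were -0.033 to 0.049 for Rgs12, -0.047 to 0.059 for Gnaq and -0.23 to 0.019 for Gng2. Signs of the other members were not followed. RLE size factors, voom and 1 CPM in 3 libraries gave the same 2 members. With 3 libraries a group, differences under 1.5-fold are often not detectable, above all for RGS genes under 20 CPM. The causes of these shifts were not tested.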
